A study of Homo sapiens with 52 samples.

Results

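The 9 genes described here are imprinted genes, that is genes read mainly or only from the copy inherited from 1 parent: IGF2, H19, DLK1, MEG3, PEG3, PEG10, MEST, NNAT and SNRPN. They were chosen by name from the 27043 genes listed in every table. No measured value served as a rule for the choice, but earlier results of these data were known when it was made. Their expression was followed by RNA-seq in fusion-positive rhabdomyosarcoma (FP-RMS) cells, a muscle-lineage tumour line that carries the PAX3-FOXO1 fusion, after exposure to inhibitors of chromatin proteins. The screen held 44 samples taken at 6 h. In it, 20 compounds were each given at a low dose and at a high dose 10 times greater, with 1 sample per dose, and 4 DMSO (solvent) samples served as controls, 2 at 0.1% and 2 at 0.2%. The low and high doses were 0.5 and 5 µM for Cpd50, GSKJ4 and LAQ824 and 1 and 10 µM for the other compounds. N1302 at 1 µM for 6 h had its own 0.1% DMSO sample. Entinostat at 1 µM and DMSO were sampled at 1, 6 and 24 h, with 1 sample each. By the target in the labels, 7 screen compounds act on histone acetylation (the acetylation axis: Bromosporin on bromodomains, LAQ824 on HDACs, MC1568 on HDAC4/5, Merck60 on HDAC1/2, OJI-1 on HDAC8, WT161 on HDAC6 and SGC-CBP30 on the CREBBP/EP300 bromodomain). A further 11 act on histone methylation (Cpd50 on Jumonji demethylases, GSKJ4 on JMJD3/UTX, GSKLSD1, LSD-519 and LSD-690 on LSD1, EZ-005 on EZH2, UNC1999 on EZH1, PFI-2 on SETD7, SGC0946 on DOT1L, UNC0638 on KMT1C and UNC-1215 on the methyl-lysine reader L3MBTL3). Trametinib, which inhibits the kinases MEK1/2, and PFI-3, whose listed target is SMARCA4, belong to neither axis. All samples are of tumour cell culture with no normal cells beside them. The titles of the screen samples name RH41 and their cell-line label RH4, whereas both name RH4 for N1302 and entinostat, and so levels were compared between experiments as a description only.

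Imprinted genes sit in clusters. At each cluster a control region, methylated on the DNA of 1 parental copy, decides which copy is read, and a paternally read protein gene often lies beside a maternally read long non-coding RNA. IGF2 with H19 on chromosome 11 and DLK1 with MEG3 on chromosome 14 are textbook pairs of this kind. IGF2 encodes a fetal growth factor that signals through the receptor IGF1R, and its overproduction after loss of imprinting has been reported in rhabdomyosarcoma. The tables give the level of a gene from both copies together, and so they carry no information on which parental copy was read.

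Depth lay between 5737939 and 41415071 recovered reads in a sample. Samples were spread over several flow cells (sequencing runs, named in the sample files), and the 28 samples of C5JW5ACXX, which held 14 compounds and no DMSO sample, had 5737939 to 21137891 reads. DMSO replicate 1 of both concentrations was run on C4JM1ACXX with Cpd50 and GSKJ4, and replicate 2 on H144EBGXX with LAQ824 and MC1568, while GSKLSD1 and UNC-1215 were run on H0VWNAGXX without a DMSO sample. For the 10378 genes that had 100 or more reads in every DMSO file, the variance that remained once concentration and flow cell were allowed for was 1.03 times counting noise. The difference between flow cells itself had 2.34 times and that between concentrations 2.49 times counting noise. DMSO files of the same concentration were averaged and counted as 1 sample, which leaves the flow-cell difference out of the spread between controls. Of the muscle markers, MYOD1 had a median of 462.6 TPM (a transcript level scaled for gene length and for the depth of the sample) over the screen, MYOG 532.5 TPM and DES 372.4 TPM, whereas MYF5 did not exceed 1.06 TPM and CDH3 2.39 TPM in the screen. The markers of blood, epithelium, endothelium and liver (PTPRC, CD3E, EPCAM, KRT19, PECAM1, CDH5 and ALB) had medians between 0.0 and 0.449 TPM in the screen and in the other samples, and the highest single value was 2.99 TPM (ALB). Median-ratio scaling used the 6316 genes with at least 10 TPM in every sample. The middle of these genes moved by more than 0.1 on the log2 scale in 3 screen compounds, Bromosporin (-0.12), Cpd50 (-0.13) and UNC0638 (-0.11). Over all genes tested, the median log2 change against DMSO was larger than 0.1 in size under MC1568 (0.26), GSKLSD1 (0.13), Bromosporin (-0.12) and UNC0638 (-0.12).

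The members fell into 3 tiers of expression. MEST, a paternally read gene of the alpha/beta hydrolase fold family at chr7:130126016-130146138 (hg19, forward strand), was the highest with 1766 TPM ± 41.5 (SD, 4 DMSO files), rank 58 of 19731 genes above 0 in the screen DMSO samples. PEG10, a gene derived from a retrotransposon at chr7:94285637-94299006 on the forward strand, followed with 1125 TPM ± 33.0 (SD). PEG3, a zinc finger gene at chr19:57321445-57352094 on the reverse strand, had 277.4 TPM ± 6.33 (SD). IGF2 (chr11:2150342-2170833, reverse strand) had a mean of 97.7 TPM ± 33.8 (SD), MEG3 (chr14:101292445-101327360, forward strand, non-coding) 30.4 TPM ± 1.69 (SD) and NNAT (chr20:36149608-36152090, forward strand), which encodes a small membrane proteolipid of developing neurons, 19.6 TPM ± 1.05 (SD). The lowest tier held SNRPN (chr15:25068784-25223870, forward strand), DLK1 (chr14:101193202-101204561, forward strand) and H19 (chr11:2016406-2022696, reverse strand, non-coding), with mean levels of 0.864, 0.526 and 0.114 TPM. No DMSO value of a gene overlapped that of the next gene in this order. At 5 of the 9 genes the level depends on how reads were shared with an overlapping gene: IGF2 lies within the span listed for INS-IGF2, PEG3 within that of ZIM2, NNAT within that of BLCAP, SNRPN shares its end with SNURF, and the ends of MEST and COPG2 overlap. Their values are uncertain to that extent. Of the 9 members, 8 passed the filter of at least 1 TPM in 2 or more of the 52 samples. H19 passed through only 2 samples, Cpd50 at 0.5 µM and entinostat at 24 h, and DLK1 did not pass.

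Across the screen, limma on log2(TPM + 1) called 5 of the 160 member-by-compound tests at an adjusted p below 0.05 (Benjamini-Hochberg) and a change of at least 2-fold. That is 3.12% of the member tests against 3.28% of all gene-by-compound tests. The 5 calls were 3 of IGF2 and 2 of MEG3, under Cpd50, LAQ824 and MC1568. With no fold threshold 21 member tests passed, 2 of them of H19, which had passed the filter in the screen through a Cpd50 sample alone, and the share over all genes was 8.7%. The heat map of both doses shows MEG3 and NNAT above DMSO in many compounds of both axes, IGF2 on either side of it, and PEG10 and MEST near their DMSO level in most.

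**Figure D1:**
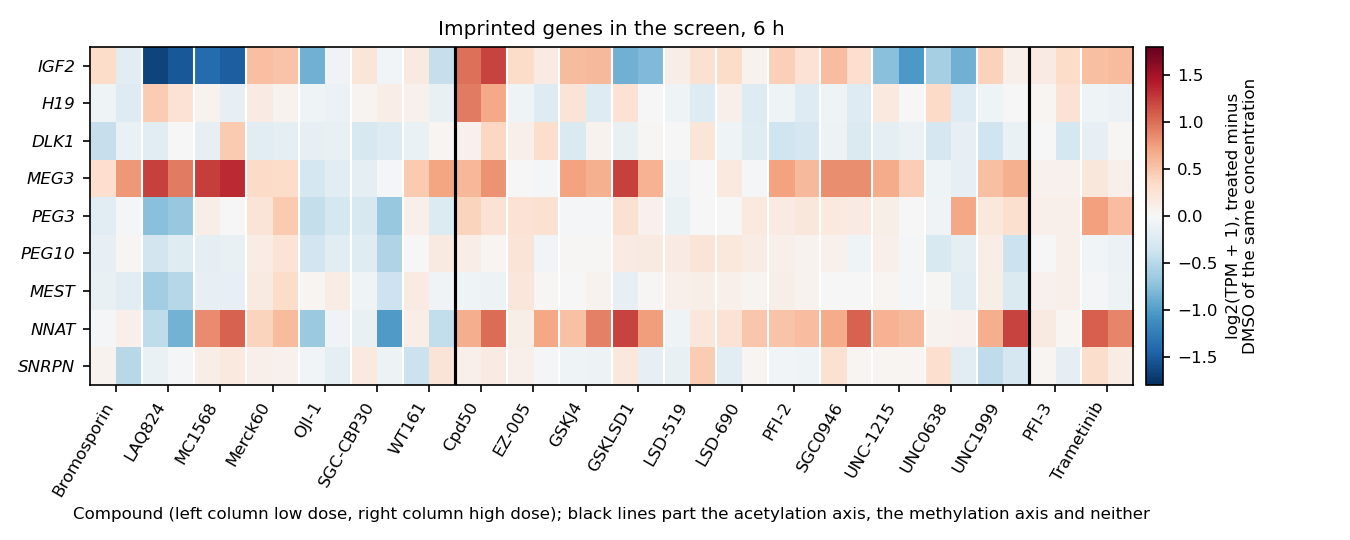
Heat map of the 9 imprinted genes (rows) in the 40 treated screen samples (columns, low dose left and high dose right for each compound), coloured by log2(TPM + 1) minus the mean of the DMSO samples of the matching concentration. IGF2 under LAQ824 and MC1568 is the darkest blue, and MEG3 under the same compounds, with 62.1 to 82.2 TPM, is among the darkest red; the colours of H19, DLK1 and SNRPN rest on few reads.

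MEG3 was the member that stood above DMSO in most compounds. MEG3 is a maternally read long non-coding RNA, spliced and held in the nucleus, with a tumour suppressor role reported in several tissues. RefSeq lists 3 MEG3 promoter windows, and the one whose start equals that of MEG3 in the tables is printed here from 250 bases before the start to 50 bases after it; capitals mark a cAMP response element (TGACGTCA, the same on both strands).
MEG3 promoter: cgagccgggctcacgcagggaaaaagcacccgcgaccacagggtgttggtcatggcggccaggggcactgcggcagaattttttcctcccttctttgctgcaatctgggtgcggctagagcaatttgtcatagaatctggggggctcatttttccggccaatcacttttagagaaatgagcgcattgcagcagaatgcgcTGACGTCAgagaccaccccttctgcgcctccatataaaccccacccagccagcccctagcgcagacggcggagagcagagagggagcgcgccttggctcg
The window lies at chr14:101292195-101292494 on the forward strand of GRCh37, where it occurs as 1 exact match, and at chr14:100825858-100826157 of GRCh38.p14 in the RefSeq table. The motif begins 50 bases before the start. It occurs in 1.84% of the 34943 RefSeq promoter windows of the same length, and the match describes letters only. The window holds 19 CG dinucleotides, against a median of 14 in all windows.

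In DMSO, MEG3 measured 29.6 and 28.5 TPM at 0.1% and 31.9 and 31.8 TPM at 0.2%. Under MC1568 it reached 69.8 TPM at 1 µM and 82.2 TPM at 10 µM, and under LAQ824 69.4 TPM at 0.5 µM and 62.1 TPM at 5 µM. None of these 4 samples overlapped the controls. Over all genes tested, both samples lay above every DMSO file for 54.6% under MC1568 and 42.9% under LAQ824. MEG3 rose by 1.29 ± 0.17 (SE, log2 scale) under MC1568 (adjusted p = 2.32e-05, limma) and by 1.09 ± 0.17 under LAQ824 (adjusted p = 1.16e-05). LAQ824 changed 25.3% of all genes tested and MC1568 6.87%. Fitted against the DMSO of their own flow cell alone, where LAQ824 changed 25.3% and MC1568 6.9% of genes, the rises were 1.10 under LAQ824 and 1.303 under MC1568. In bulk RNA a change in the number of cells of a type and a change in RNA per cell cannot be told apart. Of the 9 muscle markers tested, 5 fell under LAQ824 (MYOD1, MYOG, CHRNA1, PAX3 and FOXO1), and none was called under MC1568. Under LAQ824, 1 marker rose, CDH3 (log2 change 1.34), whose level did not exceed 2.39 TPM in the screen. The summed level of the 10 muscle markers was 3425 to 3549 TPM in DMSO, 1318 and 1376 TPM under LAQ824 and 3339 and 3394 TPM under MC1568. That of the 7 markers of other cell types was 0.304 to 0.584 TPM in DMSO, 3.02 and 3.17 TPM under LAQ824 and 1.44 and 2.14 TPM under MC1568. The part of these markers in the results for LAQ824 and MC1568 was not tested.

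Both samples of a compound stood above every DMSO file for MEG3 in 13 of 20 compounds, or 65.0% of them. Over all genes tested 26.9% of gene-by-compound pairs did so. A further 5 compounds passed the test without reaching 2-fold. GSKLSD1 gave 69.4 TPM at 1 µM and 49.5 TPM at 10 µM (log2 change 0.92 ± 0.17, adjusted p = 0.00207, limma), and SGC0946 gave 52.4 and 57.7 TPM (0.83 ± 0.17, adjusted p = 0.0331). Cpd50 gave 44.6 and 56.3 TPM (0.70 ± 0.17, adjusted p = 0.0117). WT161 and Bromosporin showed their higher level at the high dose, with 40.5 and 52.5 TPM for WT161 (0.59 ± 0.17, adjusted p = 0.0106) and 36.1 and 55.3 TPM for Bromosporin (0.54 ± 0.17, adjusted p = 0.0158). OJI-1, the HDAC8 inhibitor, lay on the other side. Its samples, with 23.1 and 27.8 TPM, were the only pair below every DMSO file. The share of gene-by-compound pairs lying so was 21.4%, and that of genes under OJI-1 27.4%. Within C5JW5ACXX each compound was set against the mean of the other 13, of which several stood above DMSO for MEG3. The SE and p-value of such a comparison come from the spread between samples of 1 compound. They leave out the spread among the 13 compounds, here and for every gene so compared below. OJI-1 had a log2 difference of -0.53 ± 0.12 (adjusted p = 0.0146) and UNC0638, with 27.6 and 28.5 TPM, of -0.38 ± 0.12 (adjusted p = 0.0223, limma). Against DMSO neither passed (-0.25 ± 0.17, adjusted p = 0.869, and -0.11 ± 0.17, adjusted p = 0.708, limma).

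**Figure D2:**
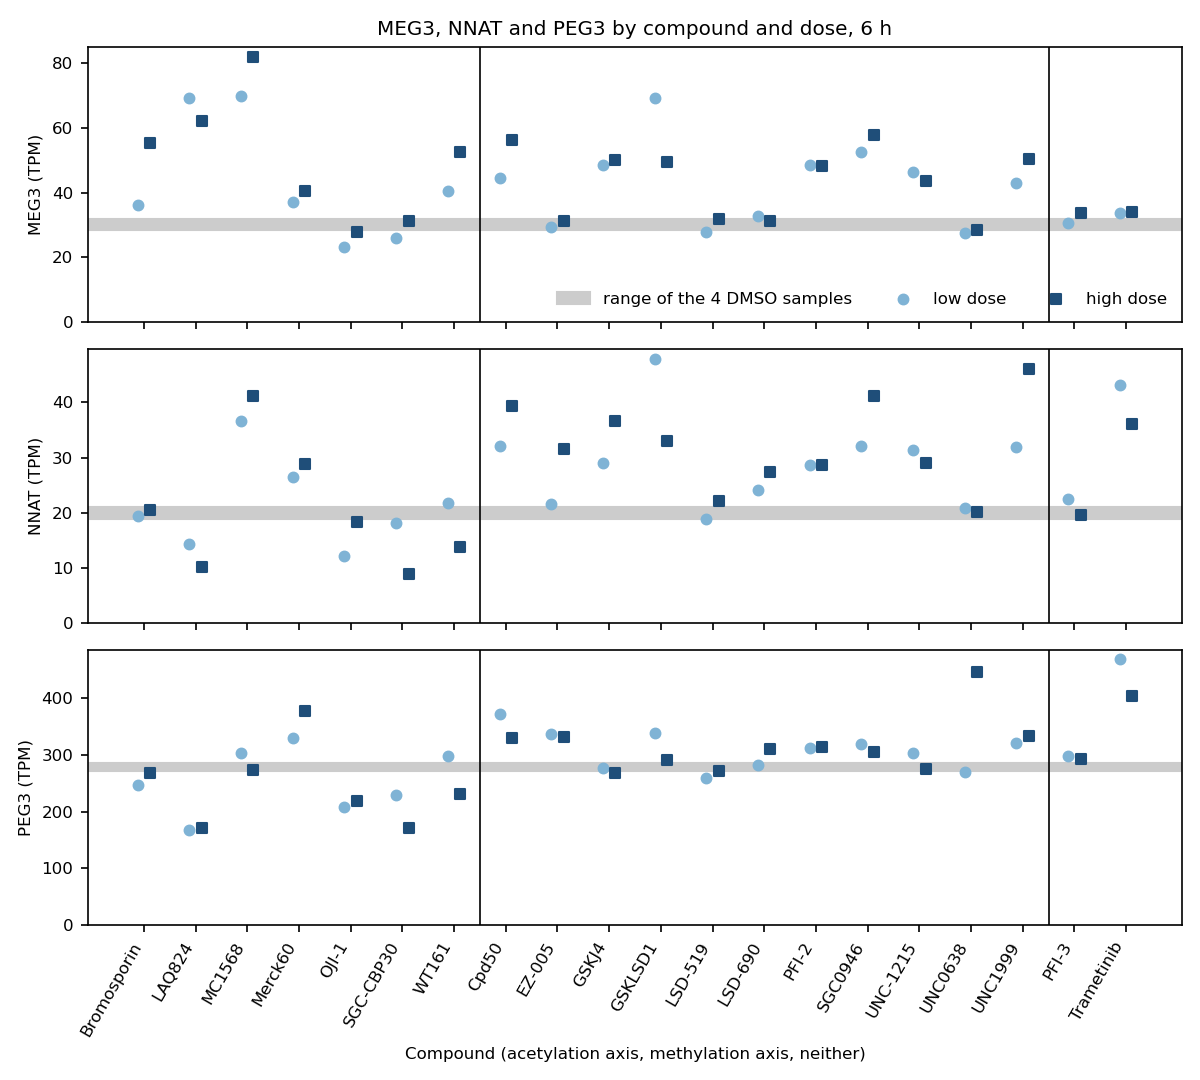
Levels of MEG3, NNAT and PEG3 in TPM (y axes, from 0) for each screen compound (x axis), with low dose as circles, high dose as squares and the range of the 4 DMSO samples as a grey band. MEG3 lies above the band at both doses in 13 compounds and NNAT in 12, while PEG3 is lowest under LAQ824 and under SGC-CBP30 at the high dose and highest under Trametinib at the low dose.

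MEG8, a non-coding RNA of the same maternally read cluster at chr14:101361107-101373305, was one of the other imprinted genes called in most compounds. It measured 5.19 to 5.81 TPM in the 4 DMSO files and 23.3 and 21.3 TPM under LAQ824, 14.5 and 14.7 TPM under MC1568 and 10.1 and 14.4 TPM under WT161, low dose first. It rose by 1.84 ± 0.33 under LAQ824 (adjusted p = 5.36e-05), by 1.26 ± 0.33 under MC1568 (adjusted p = 0.00775) and by 1.01 ± 0.33 (SE, log2 scale) under WT161 (adjusted p = 0.0214, limma). A high MEG8 level did not always go with a high MEG3 level: PFI-3 at 1 µM had 12.3 TPM of MEG8, above all DMSO files, and 30.7 TPM of MEG3, within their range.

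DLK1, the paternally read neighbour 87883 bases upstream of MEG3, encodes a membrane protein that restrains differentiation of adipocyte precursors and is made by fetal muscle. It was near absent. The 40 treated screen samples held between 2 and 37 reads of DLK1 each and 0.16 to 1.07 TPM, with a median of 0.391 TPM, and the DMSO files 16 to 18 reads. The highest level, 1.07 TPM, was in MC1568 at 10 µM, whose 1 µM sample had 0.404 TPM, below the DMSO range of 0.417 to 0.628 TPM. Both samples lay above every DMSO file under EZ-005 only, with 0.643 TPM from 10 reads and 0.873 TPM from 15 reads, and below in 8 of 20 compounds. Over all genes tested these shares were 26.9% above and 21.4% below. As DLK1 did not pass the filter, it was not tested.

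IGF2 differed first of all by flow cell. The DMSO samples had 129.8 and 124.0 TPM on C4JM1ACXX and 69.1 and 67.8 TPM on H144EBGXX, so that the files of 1 concentration differed by 1.84-fold. This was the second largest flow-cell shift of the 10378 genes compared; ATP5E, named after its value was seen, had a larger one. For MEG3, PEG3, PEG10, MEST and NNAT the same ratio lay between 0.939 and 1.02. The treated samples were ordered alike: medians were 165.8 TPM on C4JM1ACXX, 110.4 TPM on C5JW5ACXX, 52.2 TPM on H0VWNAGXX and 31.6 TPM on H144EBGXX. A value of IGF2 is therefore given against its own flow cell wherever that could be done.

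**Figure D3:**
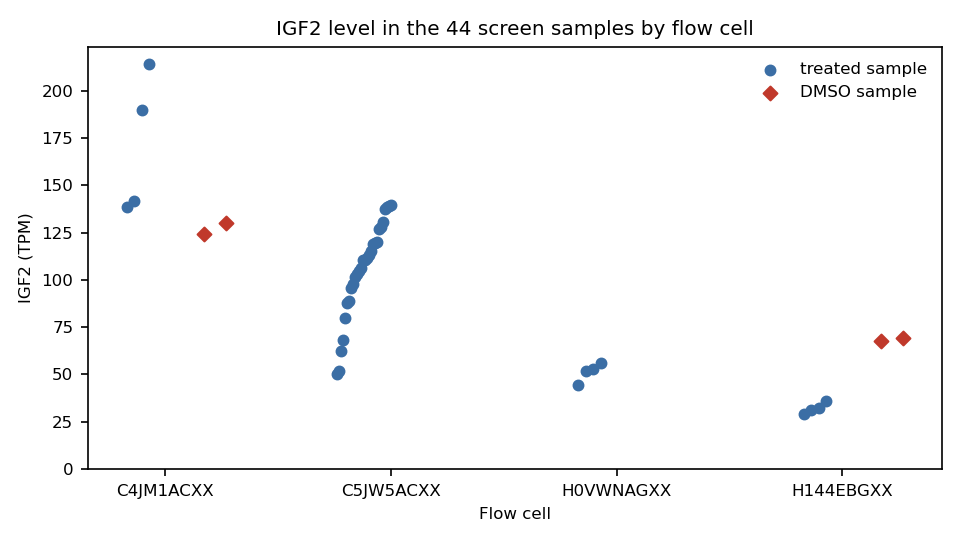
Level of IGF2 in TPM (y axis, from 0) in the 44 screen samples, by flow cell (x axis); blue circles are treated samples and red diamonds DMSO samples, and the sideways spread of points has no meaning. The DMSO samples sit at 124.0 and 129.8 TPM on C4JM1ACXX and at 67.8 and 69.1 TPM on H144EBGXX, and on the latter all 4 treated samples lie below the DMSO samples.

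On H144EBGXX, LAQ824 lowered IGF2 to 29.2 TPM at 0.5 µM and 31.1 TPM at 5 µM, and MC1568 to 35.7 TPM at 1 µM and 32.2 TPM at 10 µM. All 4 lay below both DMSO samples of that flow cell and below every other DMSO file. Over all genes tested, both samples lay below every DMSO file for 38.4% under LAQ824 and 16.5% under MC1568. IGF2 fell by 1.16 ± 0.21 (SE, log2 scale) under LAQ824 against that DMSO (adjusted p = 5.42e-05, limma) and by 0.99 ± 0.21 under MC1568 (adjusted p = 0.0014), the latter just short of 2-fold. Against all 4 DMSO files IGF2 had log2 changes of -1.598 (adjusted p = 1.61e-06) under LAQ824 and -1.43 (adjusted p = 7.25e-05) under MC1568, and both were called.

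Cpd50 had the highest IGF2 levels of the series, 190.0 TPM at 0.5 µM and 213.8 TPM at 5 µM. Both exceeded the 2 DMSO samples of the same flow cell and every other DMSO file. Over all genes tested, both Cpd50 samples lay above every DMSO file for 21.3%. Against all 4 DMSO files the rise was 1.10 ± 0.22 (SE, log2 scale) and was called (adjusted p = 0.00144), where Cpd50 changed 2.12% of genes. Against the DMSO of its own flow cell the rise was 0.66 ± 0.21 and was not called (adjusted p = 0.062, limma, 2.15% of genes called). GSKJ4, on the same flow cell, gave 141.5 and 138.4 TPM, 0.14 ± 0.21 above its DMSO. After median-ratio scaling the rise against all DMSO files was 1.23.

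Within C5JW5ACXX, UNC0638 and OJI-1 had the lowest IGF2. UNC0638, which inhibits the H3K9 methyltransferase KMT1C (G9a), had 62.3 TPM at 1 µM and 50.0 TPM at 10 µM, a log2 difference of -0.93 ± 0.15 from the other 13 compounds of the flow cell (adjusted p = 0.000274, limma). OJI-1 had 51.7 and 87.6 TPM (-0.64 ± 0.15, adjusted p = 0.018, limma). Against all DMSO files, which were run on other flow cells, UNC0638 passed short of 2-fold (-0.73 ± 0.22, adjusted p = 0.0297, limma). OJI-1 did not pass against them (-0.465 ± 0.22, adjusted p = 0.602, limma). WT161 at 10 µM, with 68.3 TPM, and Bromosporin at 10 µM, with 80.0 TPM, were lower than at the low dose, which had 106.3 and 119.9 TPM. Neither passed against the other compounds of the flow cell (-0.28 ± 0.15, adjusted p = 0.152 for WT161 and -0.06 ± 0.15, adjusted p = 0.765 for Bromosporin). GSKLSD1 had 51.8 and 52.7 TPM and UNC-1215 55.9 and 44.4 TPM, but for H0VWNAGXX, which had no DMSO sample, the compound and the flow cell cannot be told apart.

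H19, the maternally read non-coding RNA 127645 bases from IGF2, was close to 0 throughout. It was listed at 0 in 17 of the 44 screen samples, where 3 reads would have been worth between 0.162 and 0.62 TPM, and the most reads in a screen sample were 17. Cpd50 had 1.01 TPM at 0.5 µM and 0.879 TPM at 5 µM, against 0.0 to 0.195 TPM in the 4 DMSO files. LAQ824 had 0.449 TPM from 13 reads and 0.407 TPM from 10 reads. Both samples of Cpd50 and of LAQ824 thus lay above every DMSO file, as they did for 21.3% and 42.9% of all genes tested. As H19 reached 1 TPM in the screen only under Cpd50, these levels are given as a description with no test. Cpd50 thus had the highest screen levels of IGF2 and of H19. INS-IGF2, a readthrough gene whose span contains IGF2, was also highest there, with 1.71 TPM from 63 reads and 2.07 TPM from 72 reads against 0.255 to 0.564 TPM in DMSO. It too reached 1 TPM only in the Cpd50 samples, and no test of it is given. As it shares sequence with IGF2, the 2 values are not independent.

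NNAT rose under several compounds and fell under others. In DMSO it measured 18.8 and 21.1 TPM at 0.1% and 18.95 and 19.3 TPM at 0.2%. Both doses exceeded every DMSO file in 12 of 20 compounds and lay below them in 3, against 26.9% and 21.4% of gene-by-compound pairs over all genes. GSKLSD1 gave 47.8 TPM at 1 µM and 33.0 TPM at 10 µM (log2 change 0.99 ± 0.26, adjusted p = 0.0346), Trametinib 43.2 and 36.1 TPM (0.98 ± 0.26, adjusted p = 0.0446) and MC1568 36.7 and 41.2 TPM (0.96 ± 0.26, adjusted p = 0.0114, limma). LAQ824 went the other way, with 14.3 and 10.1 TPM (-0.66 ± 0.26, adjusted p = 0.0403). UNC1999 had 31.9 TPM at 1 µM and 46.0 TPM at 10 µM without passing the test, and SGC-CBP30 had 18.1 and 8.96 TPM. Against the other 13 compounds of its flow cell, several of which stood above DMSO at both doses, SGC-CBP30 was lower (-0.91 ± 0.19 on the log2 scale, adjusted p = 0.00306). Cpd50, with 32.1 and 39.3 TPM, was higher than the DMSO of its own (0.88 ± 0.26, adjusted p = 0.0427). Against all DMSO files neither passed (-0.57 ± 0.26, adjusted p = 0.262 for SGC-CBP30 and 0.83 ± 0.26, adjusted p = 0.0656 for Cpd50, limma). None of these was called at 2-fold. BLCAP, the gene on the opposite strand that surrounds NNAT, rose under Trametinib (492.2 and 527.1 TPM against 315.0 to 319.4 TPM in DMSO, log2 change 0.68 ± 0.13, adjusted p = 0.00291). How much of either value reflects reads of the other gene was not tested.

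MC1568 and LAQ824, which were run on 1 flow cell and are both listed as HDAC inhibitors, were set against each other, as 1 of 3 pairs of compounds compared after their values had been seen. Their doses differ, 1 and 10 µM against 0.5 and 5 µM. NNAT was higher under MC1568 by 1.61 ± 0.26 (SE, log2 scale, adjusted p = 1.87e-05, limma), in a comparison in which 24.8% of genes were called. PEG3 was higher by 0.77 ± 0.16 (adjusted p = 0.000235) and MEST by 0.43 ± 0.12 (adjusted p = 0.00426), short of 2-fold. For IGF2 and MEG3 no difference passed (0.16 ± 0.22, adjusted p = 0.545, and 0.20 ± 0.17, adjusted p = 0.332).

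PEG3, which encodes a zinc finger protein and is read from the paternal copy, fell under LAQ824 and rose under Trametinib. The DMSO files had 271.2 to 286.2 TPM. LAQ824 gave 166.7 TPM at 0.5 µM and 170.1 TPM at 5 µM (log2 change -0.72 ± 0.16, adjusted p = 0.000486), and Trametinib 469.7 and 404.3 TPM (0.65 ± 0.16, adjusted p = 0.0221, limma). SGC-CBP30 had 229.7 TPM at 1 µM and 170.4 TPM at 10 µM, both below every DMSO file, as were 21.4% of genes under SGC-CBP30. It was 0.62 below the others of its flow cell (-0.62 ± 0.11, adjusted p = 0.000858) and did not pass against DMSO (-0.49 ± 0.16, adjusted p = 0.0873, limma). Under OJI-1 PEG3 had 208.1 and 219.1 TPM and NNAT 12.1 and 18.4 TPM, and both were lower than in the other compounds of that flow cell (-0.50 ± 0.11, adjusted p = 0.0123, and -0.68 ± 0.19, adjusted p = 0.04). Against DMSO neither gene passed under OJI-1 (-0.38 ± 0.16, adjusted p = 0.508, and -0.37 ± 0.26, adjusted p = 0.9, limma). UNC0638 had 269.7 TPM of PEG3 at 1 µM and 446.1 TPM at 10 µM. No change of PEG3 in the screen was called at 2-fold. ZIM2, which shares the start of PEG3, had at most 1.95 TPM in any sample.

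PEG10 and MEST, the most abundant members, had the smallest range of compound means in the screen among the 8 members with a ratio. In the screen, the highest compound mean of PEG10 was 1.48 times the lowest and that of MEST 1.76 times, whereas the ratio was 6.70 for IGF2, 3.31 for NNAT and 2.99 for MEG3. MEST measured 1166 and 1214 TPM under LAQ824 against 1728 to 1805 TPM in DMSO (log2 change -0.57 ± 0.12, adjusted p = 0.00032, limma). In the screen PEG10 was lowest at 751.0 TPM under SGC-CBP30 at 10 µM, against 989.6 TPM at 1 µM and 1095 to 1156 TPM in DMSO, and within the flow cell that compound was 0.39 below the others (-0.39 ± 0.10, adjusted p = 0.012). No PEG10 test against DMSO passed in any of the 20 compounds.

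SGCE, a paternally read gene for a sarcoglycan of muscle and brain, begins 115 bases from PEG10 and is read in the opposite direction. It had 120.8 to 127.6 TPM in DMSO. LAQ824 brought it to 50.7 and 53.4 TPM, a fall by 1.24 ± 0.19 (SE, log2 scale, adjusted p = 7.75e-06, limma), at which PEG10 had a log2 change of -0.27 ± 0.14 (adjusted p = 0.0911). Under Bromosporin SGCE had 88.9 TPM at 1 µM and 47.8 TPM at 10 µM and under WT161 86.5 and 53.1 TPM, low dose first, while PEG10 had 1045 and 1116 TPM and 1157 and 1226 TPM in the same samples. Both falls of SGCE passed the test without reaching 2-fold (-0.92 ± 0.19, adjusted p = 0.000771, and -0.87 ± 0.19, adjusted p = 0.00119). The difference between the changes of these neighbours was not tested. COPG2, whose end meets that of MEST on the other strand, was called under Bromosporin, with 56.3 and 31.9 TPM against 91.9 to 97.1 TPM in DMSO (-1.14 ± 0.19, adjusted p = 0.000154), where MEST had 1649 and 1514 TPM.

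**Figure D4:**
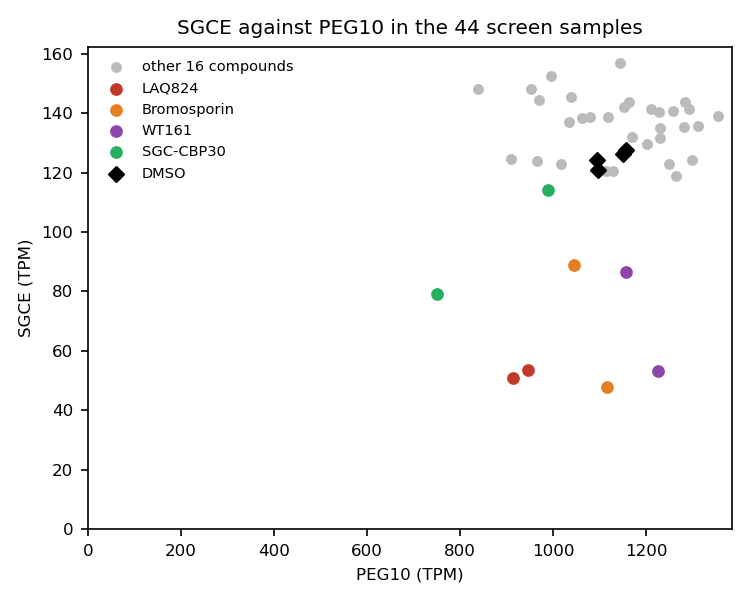
Level of SGCE (y axis, TPM) against PEG10 (x axis, TPM) in the 44 screen samples, with black diamonds for the 4 DMSO samples and colours for 4 compounds picked after their values were seen. The samples of LAQ824, of Bromosporin at 10 µM and of WT161 at 10 µM lie at 47.8 to 53.4 TPM of SGCE, while their PEG10 level stays between 914.1 and 1226 TPM.

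SNRPN, which encodes a splicing protein and belongs to the cluster affected in Prader-Willi syndrome, had 0.333 to 1.59 TPM in the treated screen samples and 0.647 to 1.03 TPM in DMSO, from 2 to 27 reads. No test of it passed. SNURF, read from the same transcripts, was listed at 0 in 45 of the 52 samples.

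The other comparisons of the screen called no member. Between 0.2% and 0.1% DMSO limma called 0.0% of genes, with 1548 genes at an unadjusted p below 0.05, of which 2 were members, and limma-voom on whole reads likewise called 0. As the files of 1 concentration count as 1 sample elsewhere, this test compares files. For the 10-fold dose step with compound as a block, 0.0% of genes were called, 2874 had an unadjusted p below 0.05, limma-voom called 0, and the members nearest to the threshold were MEST (-0.11 ± 0.03, adjusted p = 0.143), PEG10 (-0.10 ± 0.04, adjusted p = 0.195) and MEG3 (0.11 ± 0.05, adjusted p = 0.263). Between the axes limma on compound means also called 0.0% of genes, with 5018 at an unadjusted p below 0.05, whereas limma-voom called 692 genes, none of them a member. NNAT averaged 20.8 TPM ± 9.53 (SD) over the 7 acetylation-axis compounds and 30.6 TPM ± 6.92 over the 11 methylation-axis compounds, a log2 difference of -0.62 ± 0.20 (adjusted p = 0.0684). PEG3 averaged 250 TPM ± 62.0 (SD) and 312 TPM ± 29.8, a log2 difference of -0.35 ± 0.11 (adjusted p = 0.0684). Once flow cell entered the model, NNAT had an adjusted p of 0.366 and PEG3 of 0.383.

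GSKLSD1, LSD-519 and LSD-690 are listed with 1 target, the demethylase LSD1, and were given at the same doses. GSKLSD1 was set against each of the others after the values had been seen. MEG3 measured 69.4 and 49.5 TPM under GSKLSD1, 27.9 and 31.7 TPM under LSD-519 and 32.8 and 31.3 TPM under LSD-690, low dose first. It was higher under GSKLSD1 by 0.96 ± 0.17 against LSD-519 (adjusted p = 0.00519) and by 0.85 ± 0.17 (SE, log2 scale) against LSD-690 (adjusted p = 0.00676, limma). The pairs had 0.385% and 0.63% of genes called. NNAT did not pass (0.92 ± 0.26, adjusted p = 0.0881, and 0.61 ± 0.26, adjusted p = 0.315). IGF2 was called lower under GSKLSD1 in both, by 1.02 on the log2 scale (-1.02 ± 0.22), and as GSKLSD1 was on another flow cell than LSD-519 and LSD-690, compound and flow cell cannot be told apart in any of these differences. PPP1R9A, an imprinted gene that codes for a synaptic actin-binding protein, was called higher under all 3 LSD1 inhibitors, by 1.44, 1.18 and 1.27 for GSKLSD1, LSD-519 and LSD-690. These compounds changed 0.96%, 0.293% and 0.532% of all genes tested. PPP1R9A was also called higher under MC1568, by 1.31 (adjusted p = 0.000132, limma), which changed 6.87% of genes.

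Entinostat, an inhibitor of HDAC1/2/3, was followed over time without replicates, so that each change compares single libraries and has no test. Past 2-fold were 1.24% of genes at 1 h, 6.08% at 6 h and 22.4% at 24 h, and of the 9 members 0, 0 and 3. IGF2 had 60.02, 58.8 and 29.8 TPM at 1, 6 and 24 h against 58.1, 66.2 and 75.0 TPM in DMSO, and at 24 h its log2 change was -1.300. MEG3 had 18.4, 30.0 and 53.8 TPM against 18.03, 20.1 and 26.9 TPM, with log2 changes of 0.03, 0.56 and 0.97. MEG8 in the same samples had 6.29, 10.7 and 20.4 TPM against 4.94, 7.86 and 7.30 TPM. At 24 h, MEST had 622.3 TPM against 1282 TPM (-1.04) and NNAT 9.30 TPM against 20.8 TPM (-1.08), whereas PEG10 had 1578 TPM against 1067 TPM (0.56). PEG3 had 272.4 TPM against 402.3 TPM. After median-ratio scaling, MEG3 was past 2-fold at 24 h (1.06) and MEST and NNAT were not (-0.95 and -0.999).

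**Figure D5:**
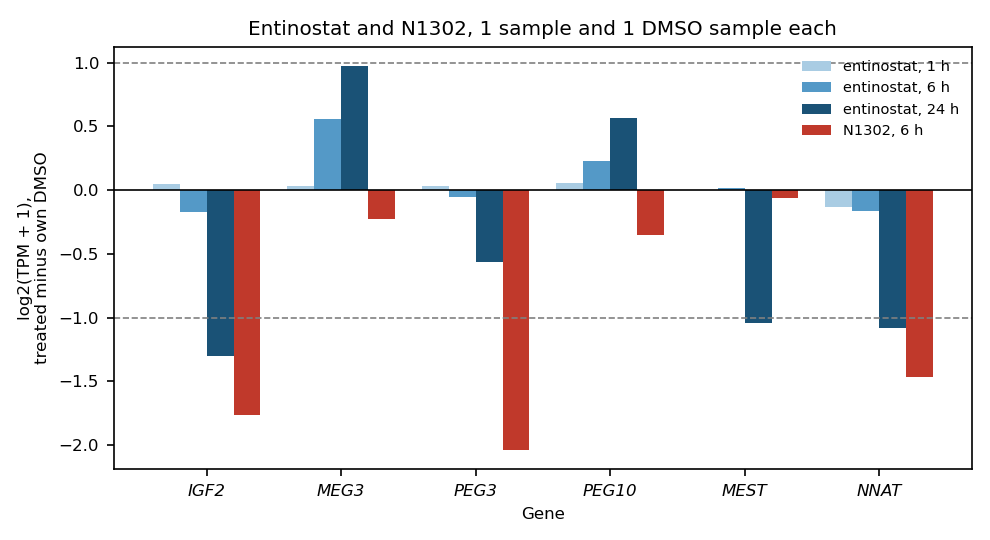
Change of 6 imprinted genes (x axis) as log2(TPM + 1) of the treated sample minus its own DMSO sample (y axis), for entinostat at 1, 6 and 24 h and N1302 at 6 h, with 1 sample and 1 DMSO sample for each bar and dashed lines at 2-fold. IGF2 is lower at 24 h of entinostat and under N1302, MEG3 is higher at 6 and 24 h of entinostat but not under N1302, and PEG10 and MEST under N1302 stay within 2-fold.

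N1302, a further HDAC inhibitor, put 30.9% of genes past 2-fold at 6 h, and 3 of the 9 members were among them. IGF2 had 4.04 TPM against 16.2 TPM in DMSO (-1.77), PEG3 80.9 TPM against 335.4 TPM (-2.04) and NNAT 0.437 TPM from 4 reads against 2.98 TPM from 39 reads (-1.47). MEG3 had 6.85 TPM against 8.21 TPM (-0.23). PEG10 had 713.1 TPM against 911.4 TPM (-0.35) and MEST 1853 TPM against 1938 TPM (-0.06). SGCE had 69.3 TPM against 150.6 TPM (-1.11). The median over the genes used for scaling was lower by 0.33 on the log2 scale in N1302 (-0.33), and after scaling IGF2, PEG3 and NNAT stayed past 2-fold while MEG3 stood at 0.06, MEST at 0.27 and PEG10 at -0.02. At 6 h MEG3 thus differed in sign between N1302 (-0.23) and entinostat (0.56) as deposited, and this difference was not tested.

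The controls of the experiments differed in several members. Besides its lower IGF2, the DMSO sample of N1302 had 8.21 TPM of MEG3 and 2.98 TPM of NNAT, against 18.03 to 26.9 TPM and 16.7 to 20.8 TPM in the 3 DMSO samples of the time course. MEST was higher there (1938 TPM against 1282 to 1327 TPM). DLK1 had 0.0 to 0.0425 TPM in the 4 RH4-titled DMSO samples, with at most 2 reads, and 0.417 to 0.628 TPM in the screen DMSO files. SNRPN was listed at 0 in 7 of the 8 RH4-titled samples, which allows up to 0.115 to 0.224 TPM at 3 reads, and had 9 reads (0.397 TPM) under entinostat at 24 h. Between the screen and the other sets the line named in the titles and the sequencing run cannot be told apart. The N1302 and time-course sets are both titled RH4, and the cause of their differences was not tested.

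The partners of each pair were compared over the 20 compound means of log2(TPM + 1), as 2 relations. IGF2 and H19 had r = 0.02 (two-sided permutation p = 0.925, adjusted p = 0.925) and Spearman rho = -0.15 (permutation p = 0.533). DLK1 and MEG3 had r = 0.16 (permutation p = 0.493, adjusted p = 0.925) and rho = 0.24 (permutation p = 0.312). Without the 2 compounds farthest from the median, LAQ824 and MC1568 for IGF2 and Cpd50 and EZ-005 for DLK1, r was 0.25 and 0.28, and within the 14 compounds of C5JW5ACXX it was -0.16 and -0.34. With H19 and DLK1 at a few reads a sample, counting error sets much of their spread. Among 11141 genes with a mean of at least 5 TPM in the treated samples, the genes most like MEG3 over the compounds were APBB3 (r = 0.95), MAPK8IP3 (r = 0.92) and COL27A1 (r = 0.92). For IGF2 they were POM121 (r = 0.80), SIN3A (r = 0.77) and WBP11 (r = 0.73), for H19 BCKDHA (r = 0.87), DDX41 (r = 0.87) and SLC2A1 (r = 0.84), and for DLK1 ISG15 (r = 0.77), HMOX1 (r = 0.76) and L1CAM (r = 0.75). The points of these correlations share flow cells.

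Of 49 other imprinted genes listed, 48 were in the tables and 34 passed the filter. They gave 28 calls in 680 gene-by-compound tests (4.12%, against 3.28% for all genes), 20 higher and 8 lower. Of the 34 genes, 16 were not called in any compound. L3MBTL1, PHLDA2 and DIO3, called higher, had mean DMSO levels of 0.519, 0.796 and 0.280 TPM, below the 1 TPM of the filter. From so low a level log2(TPM + 1) cannot fall 2-fold, so these genes could be called higher only. The numbers of higher and lower calls are therefore not on an equal footing. Higher in most compounds were PPP1R9A (4 compounds), MEG8 (3) and INPP5F (3), a phosphoinositide phosphatase called under Bromosporin, LAQ824 and WT161. Each gene called lower was called in 1 compound, with the largest falls for MAGEL2 under Trametinib (-1.64 ± 0.25, adjusted p = 0.00031), MIMT1 under Bromosporin (-1.62 ± 0.35, adjusted p = 0.00128) and PPP1R9A under Bromosporin (-1.58 ± 0.21, adjusted p = 3.27e-05, limma). Under LAQ824 the list had 8 genes called higher and 3 lower, with a median log2 change of 0.01 against 0.06 over all genes. LAQ824 called 25.3% of all genes, 2245 of 16359 higher and 1902 lower.

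The IGF pathway list held 16 genes, of which 13 were tested. They gave 11 calls in 260 tests (4.23%, against 3.28% for all genes), 3 higher and 8 lower. Lower were IRS1, the adaptor of the IGF1 and insulin receptors, under Bromosporin, LAQ824 and SGC-CBP30 (log2 changes -1.44, -2.04 and -1.3996), and the IGF2BP genes, which encode RNA-binding proteins that bind IGF2 transcripts among others. IGF2BP1 fell by 3.90 ± 0.42 under LAQ824 (adjusted p = 8.79e-08) and by 1.48 ± 0.42 under WT161 (adjusted p = 0.00834, limma), and IGF2BP2 fell by 1.97 under LAQ824 and by 1.09 under Bromosporin. IGFBP5, a secreted binding protein of the IGFs, rose by 2.52 ± 0.30 under Trametinib (adjusted p = 2.07e-05) and by 1.05 ± 0.30 under MC1568 (adjusted p = 0.0143). IRS2 rose under Bromosporin (1.08 ± 0.36, adjusted p = 0.0227, limma). Of all genes tested, LAQ824 changed 25.3%, Bromosporin 13.0%, WT161 10.4%, MC1568 6.87%, SGC-CBP30 1.23% and Trametinib 1.14%.

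Of 12 genes for the upkeep of imprints, 9 were tested. They gave 7 calls in 180 tests (3.89%, against 3.28% for all genes), 2 higher and 5 lower. DNMT3A, a DNA methyltransferase that sets methylation, fell by 2.86 ± 0.34 under LAQ824 (adjusted p = 2.99e-07), by 1.61 under WT161 and by 1.49 under Bromosporin. CTCF, the insulator protein that binds the control region between IGF2 and H19, fell by 2.16 ± 0.21 under LAQ824 (adjusted p = 3.13e-08) and by 1.37 under WT161 (adjusted p = 3.78e-05, limma). DNMT3B rose by 1.74 ± 0.36 under Bromosporin (adjusted p = 0.000756, limma) and by 1.496 ± 0.36 under LAQ824 (adjusted p = 0.00102). The calls of this list came from LAQ824, Bromosporin and WT161, which changed 25.3%, 13.0% and 10.4% of all genes tested.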

How the data were processed

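Total RNA of FP-RMS cells was poly-A selected, sequenced and aligned to hg19 with STAR, per the study's methods, which name RSEM for expression; the submitters' processing notes also name edgeR. The deposited values are TPM, which the authors scaled to gene length and sequencing depth. TPM values of all 23645 genes above 0 were whole multiples of a per-gene step (tolerance 1e-06), so reads were recovered as the smallest whole numbers that fit; they served depth and limma-voom only. The submitters' protocol says nothing of strand, so genes that overlap on opposite strands cannot be told apart.

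Groups came from the labels. Expression was analysed as log2(TPM + 1), which understates changes of low genes, in 16359 genes with at least 1 TPM in 2 or more samples. limma 3.58.1 (R 4.3.3; trended eBayes, Benjamini-Hochberg over all genes) fitted each compound's 2 doses as its 2 samples against DMSO (42 columns, files of 1 concentration averaged); a call needs an adjusted p below 0.05 and 2-fold. Nothing in the labels says that samples were separate cultures, so p-values measure the spread between these samples. DMSO replicate numbers mark the flow cell and thus pair the samples; deviations of same-numbered files correlated at 0.327. In a simulation of LAQ824 against DMSO over 16359 genes, 98.5% of 200 genes changed by 2 on the log2 scale were recovered, with 4 false calls. No member changed that much against DMSO in the screen fits, where the largest change was -1.598. The simulation gives no recovery for changes of that size or smaller. Permutation tests drew 100000 resamples (Python 3.11.15, scipy 1.17.1). Members and lists were chosen with earlier results of these data known. Named besides the members were their overlapping or neighbouring genes, the 3 genes of each list called in most compounds per direction, and the 3 genes most correlated with each of IGF2, H19, DLK1 and MEG3. Alternatives covered pseudocount, scaling, filters, limma-voom, references and left-out samples.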

Additional observations from a re-analysis of the deposited data

How the results depend on the processing

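The 5 member calls became 3 with the own flow cell as reference, which could not be had for GSKLSD1 and UNC-1215, and 21 with no fold threshold; under the other settings there were 5 to 7, and 5 to 7 when 1 DMSO file was left out. IGF2 under Cpd50 was not called against its own flow cell (0.66, adjusted p = 0.062), nor without DMSO 0.2% replicate 2 (0.89, adjusted p = 0.0146) or DMSO 0.1% replicate 2 (0.88, adjusted p = 0.0185), the files of the other flow cell. IGF2 under MC1568 missed 2-fold against its own flow cell (-0.99, adjusted p = 0.0014). MEG3 under LAQ824 and MC1568 kept its call in all settings run. Between the DMSO concentrations 0 members were called with or without the replicate block, and the dose step and the axes called 0 members under each setting, leaving out each compound in turn included. IGF2 with H19 changed sign to r = -0.13 with a pseudocount of 0.1. Members past 2-fold stayed at 3 under N1302 and ranged from 2 to 4 under entinostat. Over the alternatives, 83 recomputed values of single genes kept their direction and side of the threshold, and 94 counts and correlations stayed within 1.5 times the reported count or kept their sign. Depth limits H19, DLK1 and SNRPN, which had at most 37 reads in a sample.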

Other observations

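The gene lists were also read in the experiments without replicates, where each value compares single libraries. Over all 16359 genes tested, 2680 were more than 2-fold higher and 992 lower at 24 h of entinostat (22.4% in all), and 1903 were higher and 3158 lower under N1302 (30.9% in all). Of the 13 IGF pathway genes tested, 5 were more than 2-fold higher at 24 h of entinostat (IGFBP2, IGFBP3, IGFBP4, IGFBP5 and IGFBP6, secreted proteins that bind IGFs) and 2 were lower (IGF2BP1 and IGF2BP3); their median was 0.48 on the log2 scale against 0.10 over all genes. IGFBP5 had 45.5 TPM against 7.58 TPM in DMSO at 24 h and 24.5 TPM against 4.41 TPM at 6 h. Under N1302 none of the 13 was higher and 4 were lower, namely IRS1, IGF2BP1, IGF2BP2 and IGF2BP3. Of 9 genes for the upkeep of imprints, 5 were lower under N1302 (CTCF, DNMT1, DNMT3A, EHMT1 and SMCHD1), with a median of -1.03 against -0.11 over all genes, and 1, DNMT3A, at 24 h of entinostat. DNMT3A had 2.60 TPM under N1302 against 27.3 TPM, and 15.7 TPM under entinostat against 73.0 TPM. Of 34 other imprinted genes, 5 were higher and none lower at 24 h of entinostat (NAP1L5, CPA4, INPP5F, PHLDA2 and MEG8), a share of higher genes close to that over all genes, and under N1302 5 were higher and 4 lower.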
